A study of Mus musculus with 4 samples.

Results

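The genes of the TGF-β pathway's core were examined in open chromatin maps of mouse dermal fibroblasts: the ligand genes Tgfb1, Tgfb2 and Tgfb3, the receptor genes Tgfbr1, Tgfbr2 and Tgfbr3, and the SMAD genes Smad2, Smad3, Smad4 and Smad7. These 10 of 21887 protein-coding genes were chosen by name, and every ATAC-seq peak whose midpoint lay inside one of them or within 50000 bp of it was taken. That gave 510 of 433013 control peaks, 472 of 585165 knockout peaks, 431 of 340240 vehicle peaks and 365 of 347438 rotenone peaks. ATAC-seq marks accessible DNA by the insertions of the Tn5 transposase, and a peak is a stretch with more insertions than its surroundings.

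All 4 libraries came from dermal fibroblasts of the C57BL/6 strain and are labelled 100 days, without saying what the days count. The control was Sod2+/+, with no treatment named. The knockout was Sod2-/-, labelled a conditional knockout, Sod2 being the gene of mitochondrial manganese superoxide dismutase, and the labels name neither the Cre driver nor the number of animals. Vehicle and rotenone were both Sod2+/+ cells, given vehicle or the mitochondrial complex I inhibitor rotenone, at a labelled 250 µM. Each group was 1 library, so no difference below has a replicate check and no p-value is given. Read depth is unknown, since the lists hold peaks and no read counts. Nothing in the files shows the deletion directly: the Sod2 window held 5 strong peaks in each library, as defined below, of which 2 lay inside the gene in control and vehicle and 1 in the knockout and rotenone, and the labels do not say which part was deleted.

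TGF-β ligands are secreted in a latent complex. Once released, they bring together the type II receptor TGFBR2 and the type I receptor TGFBR1, helped by the co-receptor betaglycan (TGFBR3). The type I receptor phosphorylates SMAD2 and SMAD3, which join SMAD4 and enter the nucleus, where they bind DNA beside other factors such as AP-1. SMAD7 is induced by the pathway and inhibits it. In dermal fibroblasts the pathway is known for driving collagen synthesis and the myofibroblast state.

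The DNA just before the start sites is shown for 4 members, to show the promoters beside which the peaks described below lie. At Smad3, Tgfbr1 and Tgfbr2 the start shown lay under a strong peak in all 4 libraries, and at Tgfb1 in none. A strong peak is one among the 30000 with the highest −log10 p of the library. Each line holds the 250 bases before the RefSeq start site (GRCm38.p6), 5′ to 3′ on the strand of the gene, with the SMAD-binding letters CAGAC, read on either strand, in capitals.
Smad3 (chr9:63757995-63758244, minus strand): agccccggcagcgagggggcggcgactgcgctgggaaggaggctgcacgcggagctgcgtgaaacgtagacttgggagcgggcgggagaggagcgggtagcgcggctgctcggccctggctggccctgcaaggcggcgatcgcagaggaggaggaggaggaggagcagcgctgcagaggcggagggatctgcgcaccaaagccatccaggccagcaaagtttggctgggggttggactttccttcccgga
Tgfbr2 (chr9:116175364-116175613, minus strand): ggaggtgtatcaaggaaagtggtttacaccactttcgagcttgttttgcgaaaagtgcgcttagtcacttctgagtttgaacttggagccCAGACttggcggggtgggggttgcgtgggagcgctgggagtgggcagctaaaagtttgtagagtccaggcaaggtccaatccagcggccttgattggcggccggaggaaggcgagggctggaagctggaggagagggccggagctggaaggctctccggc
Tgfbr1 (chr4:47352972-47353221, plus strand): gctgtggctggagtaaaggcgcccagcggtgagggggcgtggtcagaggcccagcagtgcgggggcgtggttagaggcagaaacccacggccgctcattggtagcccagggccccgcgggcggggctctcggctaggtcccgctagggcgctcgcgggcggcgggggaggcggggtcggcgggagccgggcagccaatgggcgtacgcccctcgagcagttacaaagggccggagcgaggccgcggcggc
Tgfb1 (chr7:25686752-25687001, plus strand): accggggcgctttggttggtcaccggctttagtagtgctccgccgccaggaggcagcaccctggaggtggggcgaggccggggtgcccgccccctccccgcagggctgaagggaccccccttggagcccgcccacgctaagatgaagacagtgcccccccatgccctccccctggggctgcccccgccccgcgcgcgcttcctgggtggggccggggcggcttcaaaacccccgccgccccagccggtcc

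Because the lists differ in length, each was reduced to its 30000 peaks with the highest −log10 p, called strong, and the next 30000 were kept as the second class. The last strong peak had a −log10 p of 21.7 (control), 16.0 (knockout), 18.2 (vehicle) and 12.3 (rotenone). The fold enrichment over local background and the −log10 p are the authors' own values for each peak. The median fold enrichment of all strong peaks was 6.78 (control), 5.49 (knockout), 7.13 (vehicle) and 5.99 (rotenone). Where it helps, a peak's fold is therefore also given as a relative fold, its value divided by the median of the strong peaks of the same library. As a check of the tissue label, 10 fibroblast markers were looked up. A strong peak lay within 50000 bp of 10 of them in control and of 9 in each other library, but within 1000 bp of a gene end at only 2 (Col1a2 and Pdgfrb) in control and vehicle and 1 (Col1a2) in the knockout and rotenone. Markers of other cells had such a gene end peak at 2 of 5 for keratinocytes (Krt14 and Krt10) in every library, at 1 or 2 of 5 for endothelium, at 1 of 5 for melanocytes, and at 0 of 5 for leukocytes and 0 of 4 for pericytes and smooth muscle. Strong peaks at gene ends thus did not single out the fibroblast markers from those of keratinocytes or endothelium.

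The 4 printed sequences differ in composition and in motif content. The GC content was 69.2% at Smad3, 58.4% at Tgfbr2, 74.8% at Tgfbr1 and 75.2% at Tgfb1, beside a median of 52.4% over all 32851 listed promoters. The number of CpG sites was 22, 12, 29 and 21 in the same order, beside a median of 6. CAGAC or its reverse complement stood 160 bases before the Tgfbr2 start, counted to the first base of the match in the printed strand, and was not found in the other 3. Of all listed promoters, 42.2% hold CAGAC within the same length, so a match is common. Neither the SMAD palindrome GTCTAGAC, held by 0.167% of promoters, nor the AP-1 letters TGANTCA, held by 6.75%, occurred in the 4 stretches, on either strand. These counts describe letters in this window only. Promoter sequences were matched for 5 of the 10 members. The fifth, Tgfb2, had a GC content of 53.6%, 8 CpG sites and CAGAC at 221 and 204 bases before its start. Tgfbr1 had another listed start, at 47386216, with a GC content of 52.8%, 3 CpG sites and CAGAC 203 bases before it.

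The stretch before the Smad3 start was covered over all 250 bases by a peak in every library. Its fold was 8.64 (control), 6.24 (knockout), 8.28 (vehicle) and 6.56 (rotenone). At Tgfbr2 the peak covered 250, 249, 244 and 219 of the 250 bases in the same order, with folds of 10.5, 10.2, 13.1 and 10.1. At the printed Tgfbr1 start all 250 bases were covered in every library. Another listed Tgfbr1 start, at 47386216, had no control peak over its 250 bases. The knockout, vehicle and rotenone peaks there were weak, at ranks 339959, 211068 and 222897. At Tgfb1 a peak of 75 to 92 bp covered part of the stretch in each library and was strong in none, with folds of 3.10, 4.03, 3.71 and 4.39. At Tgfb2 the control peak reached 99 of the 250 bases before the start, the vehicle list had a weak peak over 131 of them, and the knockout and rotenone lists had no peak there. Every library had a strong peak in the region over the Tgfb2 start, but only the control one covered the start site, at 186705989. The others lay inside the gene and ended short of it, at 186705702 (knockout), 186705696 (vehicle) and 186705709 (rotenone). Across all listed promoters, 24.3% to 24.9% of the 300 base windows around a start site held a strong peak, depending on the library.

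The members differed widely in how many strong peaks surrounded them. Smad3 had the most, with 16 (control), 11 (knockout), 16 (vehicle) and 11 (rotenone). Tgfbr3 had 12, 10, 12 and 9, in the same order. Smad7 had 7, 7, 7 and 4. Per length, the Smad3 window of 211 kb held 7.57 strong control peaks per 100 kb, the Tgfbr3 window of 283 kb held 4.24 and the Smad7 window of 129 kb held 5.44, beside a median of 1.76 over the windows of all protein-coding genes. Tgfbr2 (7, 6, 6, 6), Tgfb2 (6, 7, 6, 5) and Tgfb1 (6, 4, 5, 6) had intermediate numbers of strong peaks, and Smad4 (2, 5, 3, 4), Tgfbr1 (3, 3, 2, 2), Tgfb3 (1, 2, 3, 2) and Smad2 (2, 2, 2, 2) few. Counts are not read as activity, since a window can hold the start sites of neighbouring genes.

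**Figure D1:**
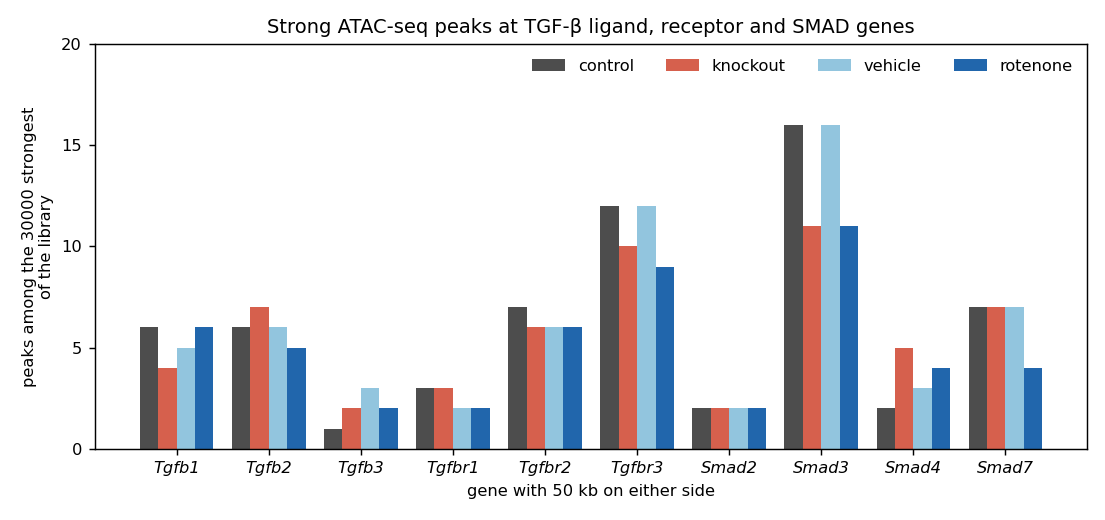
Strong peaks at each member gene: the bars give, for each of the 4 libraries, the number of peaks among the 30000 strongest with a midpoint in the gene or within 50 kb of it. Smad3 stands highest, with 16 in control and in vehicle and 11 in the knockout and in rotenone.

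Merging the strong peaks of the 4 libraries gave 83 regions at the members, 47 of them with their midpoint inside the gene. Of these 83, 39 (47.0%) were strong in all 4 libraries, beside 46.1% of the 42457 merged regions of the genome. A peak of some strength was present in all 4 libraries at 82. The exception was 1 region inside Smad3 that had no rotenone peak. Within a region, the midpoints of the best ranked peaks lay a median of 52.5 bp and at most 461.5 bp apart, a spread that the matching by overlap itself limits. The listed promoter of another gene was overlapped by 9 regions, 4 of them at Tgfb1.

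**Figure D2:**
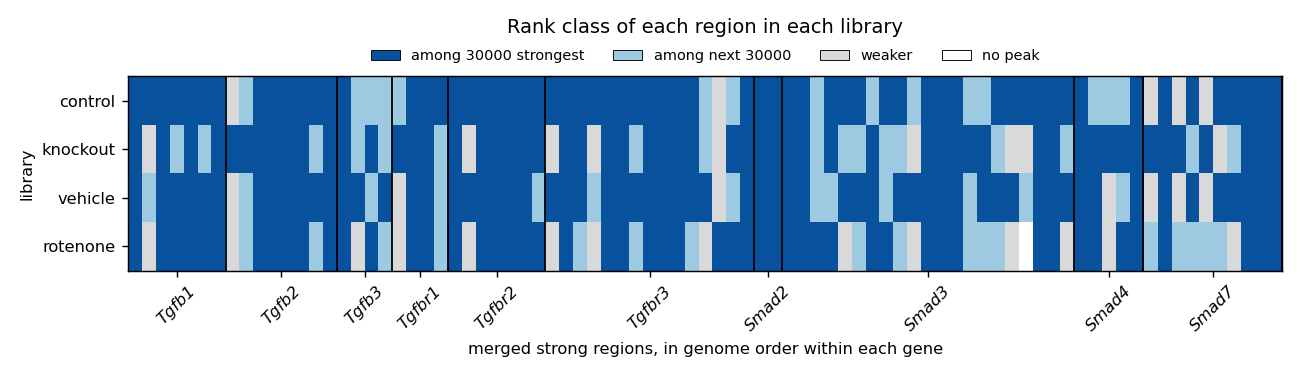
Rank class of the 83 merged regions: each column is a region, in genome order within its gene, each row a library, and the colour says whether the best ranked peak was among the 30000 strongest, the next 30000, weaker or absent. Of the 83 columns, 39 are dark in all 4 rows, and 13, 6 of them at Smad3, are dark in control and vehicle alone.

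In the comparisons, a strong peak was counted as lost when the partner library had no overlapping peak (1 bp) among its 60000 strongest, and as gained in the reverse case. In the knockout, 7 of the 62 strong control peaks at the members were lost (11.3%, 95% Wilson interval 5.58 to 21.5), against 6.76% of all strong control peaks. Of the 57 strong knockout peaks, 4 were gained (7.02%, interval 2.76 to 16.7), against 5.33% of all strong peaks. The lost peaks were 2 at Smad3, 2 at Tgfbr3 and 1 each at Tgfb1, Tgfbr2 and Smad7, and the gained ones were 3 at Smad7 and 1 at Tgfb2. The shares over all strong peaks fall inside both intervals. The intervals cover counting error only.

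In rotenone, 9 of the 62 strong vehicle peaks at the members were lost (14.5%, interval 7.83 to 25.3), against 8.04% of all strong peaks. Of the 51 strong rotenone peaks, 1 was gained (1.96%, interval 0.347 to 10.3), against 6.81% of all strong peaks. Losses fell to Smad3 with 4, to Tgfbr3 with 2 and to Tgfb3, Tgfbr2 and Smad7 with 1 each, and the gain to Tgfbr3. Without Smad3, 5 of 46 strong vehicle peaks were lost (10.9%). The shares over all strong peaks lie inside both intervals here too. Between vehicle and control, which differ in neither Sod2 nor rotenone, 0 of 62 strong peaks were lost and 0 of 62 gained (interval up to 5.83%), against 0.847% and 1.03% of all strong peaks. Both of these libraries had higher folds over all strong peaks than the knockout and rotenone libraries, and the part of that difference in the losses was not tested.

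Another count, added after the values were seen, asked only whether a strong peak overlapped a strong peak of the partner. In the knockout comparison 20 of 62 control peaks had no strong counterpart (32.3%), against 23.6% of all strong peaks, and 14 of 57 knockout peaks (24.6%), against 22.8%. In the rotenone comparison the numbers were 20 of 62 vehicle peaks (32.3%), against 24.8%, and 8 of 51 rotenone peaks (15.7%), against 24.4%. Vehicle and control left 7 of 62 in each direction (11.3%), against 14.1% in each direction of all strong peaks. Read over the 4 libraries at once, 13 of the 83 member regions (15.7%) were strong in control and vehicle and in neither of the others, against 7.52% of all merged regions. The reverse pattern, strong in the knockout and rotenone alone, was seen in 3 (3.61%), against 6.18%. Of the 13, 6 were at Smad3, 3 at Smad7, 2 at Tgfbr3 and 1 each at Tgfb2 and Tgfbr2. Without Smad3, 7 of 62 member regions (11.3%) were strong in control and vehicle alone. The 3 reverse regions were at Tgfb3, Tgfbr3 and Smad4.

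Fold and width had to be read against the whole lists. The fold of the best ranked peak was lower in the knockout than in control at 64 of 83 member regions, but once divided by the library's own median it was lower at 39, or 47.0%, the same share as over all merged regions (47.0%). In rotenone against vehicle the fold was lower at 66 of 82 regions and the relative fold at 45 (54.9%), against 46.7% over all regions. More member regions were picked as strong in vehicle (63) than in rotenone (51), so this share follows in part from the choice of regions. Knockout peaks were narrower than control peaks at 80.7% of the member regions, against 73.4% of all, and rotenone peaks narrower than vehicle peaks at 79.3%, against 71.8%. Vehicle peaks were narrower than control peaks at 68.7% of the member regions, against 62.9% of all, so the member share was above that of all regions in this comparison too. Between vehicle and control the relative fold was lower in vehicle at 56.6% of the member regions, against 51.5% of all. On the relative scale, the member share therefore equalled that of all regions in the knockout comparison.

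**Figure D3:**
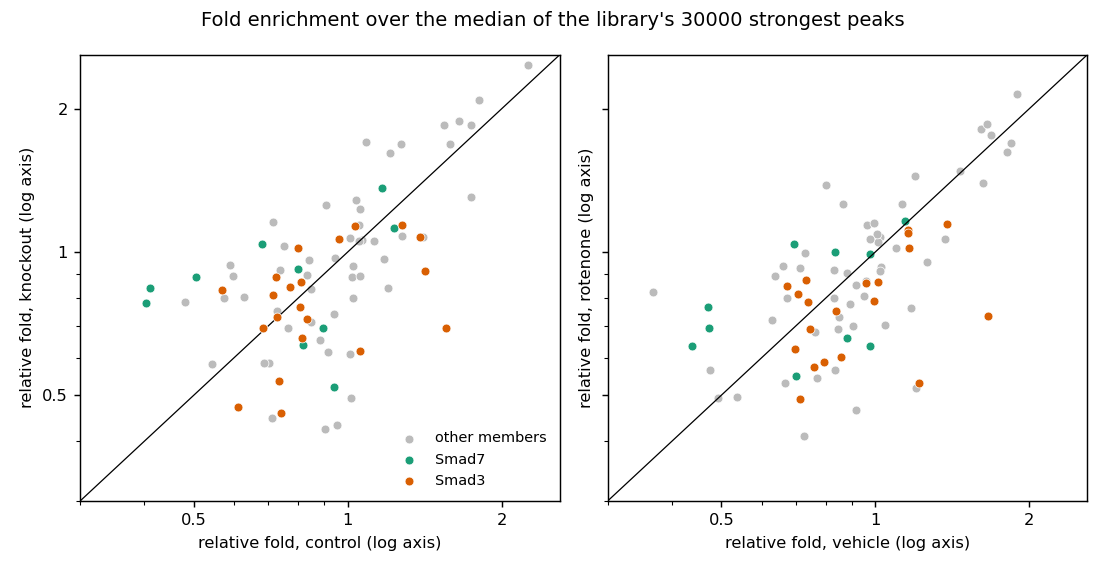
Relative fold of the best ranked peak in each of the 83 regions, knockout against control and rotenone against vehicle, on log axes, with the line of equality. Points lie on both sides of the line in each panel, and the Smad3 region at 1.55 in control and 0.69 in the knockout lies among those farthest below it.

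Tgfb1, the gene of the ligand most widely expressed in adult tissue (chromosome 7, 25687002-25705077, mm10), had 1 strong region inside the gene, at 25688855-25689534, 2.2 kb downstream of its start. The fold there was 6.85 (control), 3.34 (knockout), 7.29 (vehicle) and 5.46 (rotenone), so the knockout peak stood apart and fell in the second class. The best ranked region of the window, at 25711429-25712262, lay 6352 bp outside Tgfb1 and inside Ccdc97, with folds of 8.21, 8.88, 8.51 and 8.65. The region lost in the knockout, at 25676474-25676824 inside Tmem91, had folds of 4.82, 2.46, 4.74 and 3.17, in the same order. Its control peak was strong at rank 26706 and its vehicle peak outside at rank 32661. At the edge of the window lay the Hnrnpul1 start region, strong in all 4, whose midpoint was 50090 bp from the gene and whose peaks fell inside or outside by their own midpoints. The farthest region midpoint inside a window was 48349 bp from its gene, at Smad4.

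Tgfb2, the ligand gene on chromosome 1 (186622787-186709697), kept 3 strong regions inside the gene in every library. The best ranked one in control, at 186695107-186695876 and 10.5 kb downstream of the start, had folds of 9.53 (control), 5.90 (knockout), 9.75 (vehicle) and 6.39 (rotenone). On the relative scale these were 1.41, 1.07, 1.37 and 1.07, so control and vehicle stood above the other libraries. The region over the start, at 186705214-186706088, showed little of this, with relative folds of 0.85, 0.84, 0.92 and 0.85. Only in control did the best ranked peak there cover the start site itself. The best ranked knockout peak of the window lay downstream of the gene inside the lncRNA gene Gm35546, at 186609811-186610441, with a relative fold of 1.29 against 1.04 in control. The gained region, at 186585766-186586048 and 36739 bp from the gene, had folds of 3.26, 4.32, 3.38 and 3.38. It was strong in the knockout by a small margin, at rank 29199. A region 9269 bp beyond the upper end of the gene, at 186718966-186719203, was strong in control (fold 5.98) and vehicle (8.36) and in the second class in the knockout (3.59) and rotenone (4.57).

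Tgfb3, the third ligand gene (chromosome 12, 86056743-86079041), had no strong peak inside it in control, the knockout or rotenone. The region over its upper end, at 86078865-86079081, was strong in vehicle alone, with folds of 4.75 (control), 3.20 (knockout), 5.48 (vehicle) and 3.26 (rotenone). It counted as lost in rotenone. A region 420 bp beyond that end, at 86079461-86079813, showed the opposite order, with folds of 5.10, 5.66, 5.19 and 5.96. It was strong in the knockout and rotenone and in the second class in control and vehicle, at ranks 33428 and 33277. The best ranked region of the control list, at 86012207-86012674 inside Ttll5, was strong in all 4.

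Tgfbr1, which encodes the type I receptor kinase (chromosome 4, 47353222-47414926), held the highest fold of all members. The region at 47407220-47407534, 54.2 kb downstream of the start and 7549 bp from the end of the gene, had folds of 15.3 (control), 13.6 (knockout), 13.5 (vehicle) and 12.9 (rotenone). Its width was 303, 313, 288 and 306 bp, so neither fold nor width set a library apart. The start site region, at 47352830-47353623, had folds of 10.7, 9.26, 11.6 and 8.38. Neither comparison lost or gained a strong peak at this gene. A region 24125 bp before the gene, at 47328935-47329097, was strong in the knockout alone, with folds of 4.25, 4.42, 3.83 and 2.98.

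Tgfbr2, the gene of the ligand-binding type II receptor (chromosome 9, 116087695-116175363), had the best ranked peak of any member in control. That region, at 116152767-116153431 and 22.3 kb into the gene, had folds of 12.3 (control), 11.5 (knockout), 11.5 (vehicle) and 10.8 (rotenone), and ranks of 742, 800, 1436 and 1285. It was strong in all 4 libraries, as was the start site region. Another region, farther into the gene, differed. At 116138673-116139133, 36.5 kb downstream of the start, the fold was 6.88 (control), 2.71 (knockout), 8.57 (vehicle) and 3.11 (rotenone), and the width 452, 156, 394 and 300 bp. The knockout and rotenone peaks fell outside the 60000 strongest, at ranks 105393 and 98210, so the region was lost in both comparisons. The 3 regions beyond the start, 43285 to 48062 bp outside the gene, were strong in control, the knockout and rotenone, and 1 of them narrowly missed the strong list in vehicle (rank 30014).

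Tgfbr3, the betaglycan gene (chromosome 5, 107106567-107289629), is the longest member and held 12 of its 15 regions inside. Its best ranked control region, at 107087095-107087776, lay 18791 bp from the lower end, with folds of 11.8, 10.1, 12.0 and 10.5, and the intragenic one at 107157348-107157930 had folds of 11.2, 10.4, 11.8 and 11.2. Both were strong everywhere. Regions of lower rank differed more. At 107079164-107079602, 26965 bp from the gene, the fold was 6.47 (control), 2.38 (knockout), 6.55 (vehicle) and 2.79 (rotenone), and the region was lost in both comparisons.
The region at 107120047-107120138, lost in the knockout, had folds of 6.11, 2.33, 5.17 and 2.46, and its control peak was only 92 bp wide. At 107213459-107214003, lost in rotenone, the folds were 4.65, 3.20, 5.95 and 3.39. Control and vehicle stood above the other libraries at each of these 3. As these regions were picked as lost, the order within that comparison follows in part from the rule. The region gained in rotenone, at 107234034-107234127, had folds of 3.69, 3.19, 2.62 and 4.94 and a rotenone peak of 94 bp. The upper end of the gene, at 107289273-107289792, was strong in all 4, with folds of 7.17, 4.89, 6.79 and 4.84.

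Smad2 and Smad4, which encode a receptor-activated SMAD and the common partner SMAD, lie on chromosome 18 with Smad7. Smad2 (76241090-76311748) had the same 2 strong regions in every library. The one at its lower end, at 76240920-76242446, had folds of 7.15 (control), 5.80 (knockout), 6.88 (vehicle) and 6.83 (rotenone). The other, 17343 bp outside the gene at 76223368-76223747, had folds of 7.37, 9.35, 5.71 and 8.27, and relative folds of 1.09, 1.70, 0.80 and 1.38. There the knockout and rotenone stood above control and vehicle. Neither Smad2 nor Smad4 lost or gained a strong peak under the main definition.

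At Smad4 (73634790-73703791) the strongest region lay inside Elac1, at 73751987-73752294, with folds of 11.8 (control), 7.17 (knockout), 12.9 (vehicle) and 9.72 (rotenone). Inside Smad4 control had 0 strong peaks, the knockout 3, vehicle 1 and rotenone 1. The region over the upper end, at 73703363-73704186, was strong in the knockout (fold 4.12) and rotenone (4.79) and in the second class in control (4.94) and vehicle (4.79). The relative folds were 0.73 (control), 0.75 (knockout), 0.67 (vehicle) and 0.80 (rotenone), so the 2 libraries where it was strong were also the higher ones on that scale. The intragenic region at 73674313-73674576 had folds of 4.85, 6.36, 7.08 and 6.91, and control alone was outside its strong list.

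Smad7, the inhibitory SMAD gene (75367365-75395935), held 10 regions, 4 of them strong in all 4 libraries. The best ranked control region, at 75405667-75405965 and 9732 bp beyond the upper end, had folds of 8.35 (control), 6.18 (knockout), 8.14 (vehicle) and 6.95 (rotenone). Inside the gene, the region at 75378502-75378959 had folds of 6.36, 2.85, 6.28 and 3.95 and was lost in the knockout. The one at 75385005-75385334 had folds of 5.53, 3.50, 4.99 and 3.28 and was lost in rotenone. Just outside the lower end, 75366390-75366977 followed the same order, with folds of 6.06, 3.81, 6.96 and 3.80.
Control and vehicle were the higher libraries in these 3 regions, and each was strong in these libraries alone. For the regions picked as lost, the order within that comparison follows in part from the rule. The gene also had the 3 regions gained in the knockout next to Tgfb2's 1. At 75324769-75324906 the fold was 2.78 (control), 4.61 (knockout), 3.35 (vehicle) and 4.59 (rotenone). At 75363289-75363438, inside the lncRNA gene Gm20544, it was 3.43, 4.86, 3.37 and 4.15. At the lower end of the gene, 75367343-75367556, it was 2.74, 4.30, 3.13 and 3.80. The gain rule picked these 3 for a high knockout rank and a low control rank, so that part of the order follows from it. In fold the knockout was highest and rotenone came next. The rotenone peak at the gene end was a single one of 1232 bp that also overlapped the region before it. Losses and gains thus lay side by side at Smad7.

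Smad3, which encodes the SMAD that carries TGF-β signals to many matrix genes (chromosome 9, 63646766-63757994, transcribed from the minus strand), had 21 regions, 15 inside the gene. Inside, control had 11 strong regions, the knockout 7, vehicle 11 and rotenone 6, and 3 were strong in all 4. The counts of strong peaks in the window of 16 and 11, in both comparisons, can be set beside other genes. Of 535 protein-coding genes with 10 or more strong control peaks, 9.53% had at least 5 fewer in the knockout. Of 519 with as many strong vehicle peaks, 11.2% had at least 5 fewer in rotenone, and 0.561% of the 535 had at least 5 fewer in vehicle than in control. The limits of 10 and 5 were chosen after the Smad3 counts were known. When peaks were ranked by fold in place of −log10 p, the counts at Smad3 were 13, 12, 13 and 11, so the differences were then 1 and 2 peaks.

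**Figure D4:**
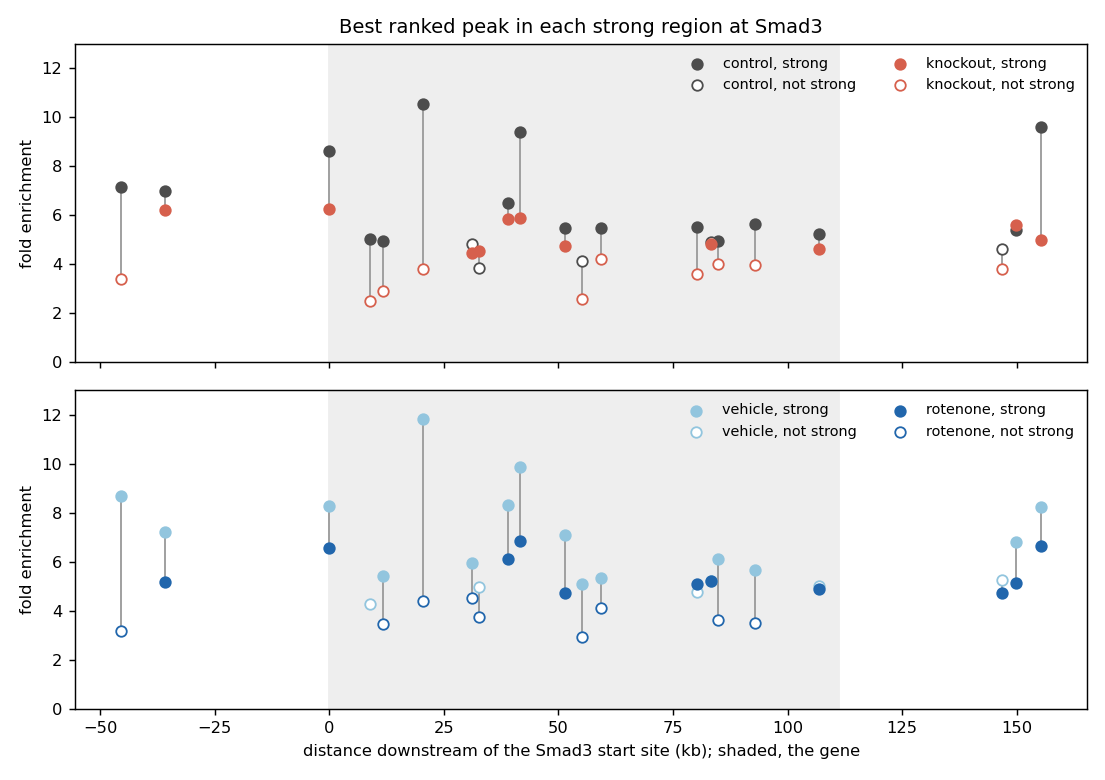
Fold enrichment of the best ranked peak in each of the 21 strong regions at Smad3 against distance downstream of the start site in kb, with the gene shaded, control and knockout above, vehicle and rotenone below, filled points for strong peaks and lines joining the 2 libraries. The region 20.4 kb into the gene stands highest in control (10.5) and vehicle (11.8) and is at 3.80 and 4.39 in the knockout and rotenone.

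The region 20.4 kb downstream of the start, at 63737393-63737819, showed the widest gap between libraries among the regions inside Smad3. Its fold was 10.5 (control), 3.80 (knockout), 11.8 (vehicle) and 4.39 (rotenone), and its relative fold 1.55, 0.69, 1.66 and 0.73. It was the best ranked region of the Smad3 window in control and vehicle, at ranks 5668 and 4559, and in the second class in the others, at ranks 37300 and 33762. The peaks kept their width (416, 404, 427 and 401 bp) and position, with midpoints within 24.5 bp. Since peaks remained among the 60000 strongest, the region does not count among the losses. It also lies inside the lncRNA gene Gm51710, and which of the genes it serves was not tested.

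Going from the start site into the gene, the first region, 8.9 kb downstream at 63749050-63749154, was strong in control alone. Its fold was 5.03 (control), 2.52 (knockout) and 4.28 (vehicle), and the rotenone list held no peak there. It was lost in the knockout, but the control peak was only 105 bp wide. The next, 11.7 kb downstream at 63745809-63746751, had folds of 4.97, 2.94, 5.42 and 3.44 and widths of 910, 386, 861 and 687 bp, and was lost in both comparisons. Control and vehicle were the higher and wider libraries there, an order in part implied by the loss calls themselves.

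Past the region described above, 2 others followed. At 31.2 kb (63726502-63727034) the fold was 4.85 (control), 4.46 (knockout), 5.97 (vehicle) and 4.51 (rotenone), with strong peaks in the knockout and vehicle. At 32.6 kb (63725360-63725496) it was 3.85, 4.56, 4.97 and 3.74, strong in the knockout alone. In neither did the strong class change the same way in both comparisons. The 3 regions strong in all 4 libraries lay together between 39.1 and 51.5 kb.
At 39.1 kb (63718775-63719089) the folds were 6.51, 5.86, 8.30 and 6.11, and at 41.7 kb (63716154-63716491) they were 9.40, 5.92, 9.87 and 6.86. At 51.5 kb (63706266-63706703) they were 5.49, 4.75, 7.09 and 4.73. Control and vehicle were higher at 41.7 kb also on the relative scale, where the values were 1.39, 1.08, 1.38 and 1.14.

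Farther into the gene, control ranks lay between 21792 and 31860, near the end of the strong list. At 55.2 kb (63702546-63702990) the fold was 4.14 (control), 2.59 (knockout), 5.08 (vehicle) and 2.94 (rotenone), and the region was strong in vehicle alone and lost in rotenone. At 59.2 kb (63698626-63699017) it was 5.47, 4.20, 5.32 and 4.13, strong in control and vehicle. The knockout peak there missed the strong list narrowly, at rank 30551. At 80.2 kb (63677716-63677959) the folds were 5.52, 3.62, 4.78 and 5.09, and control and rotenone were strong. At 83.2 kb (63674660-63674906) they were 4.90, 4.85, 5.21 and 5.22, with control alone outside its strong list, at rank 31357. On the relative scale the region at 83.2 kb was higher in the knockout (0.88) than in control (0.72) and higher in rotenone (0.87) than in vehicle (0.73), while the one at 80.2 kb was lower in the knockout (0.66 against 0.81) and higher in rotenone (0.85 against 0.67).
At 84.9 kb (63672847-63673355) the folds were 4.94, 4.00, 6.12 and 3.61, and at 92.8 kb (63664841-63665479) 5.66, 3.98, 5.67 and 3.51. Both were strong in control and vehicle alone, and the one at 92.8 kb was lost in rotenone, where its peak was at rank 61057, just outside the 60000 strongest. The last region, at 106.8 kb (63650911-63651464), had folds of 5.23, 4.64, 5.02 and 4.90 and was outside the strong list in vehicle alone.

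Outside the gene, the start site region of Smad3 (63757829-63758378) had relative folds of 1.27 (control), 1.14 (knockout), 1.16 (vehicle) and 1.09 (rotenone), closer together than at 20.4 kb. The region 45144 bp before the gene, at 63803138-63803664, had folds of 7.16, 3.40, 8.68 and 3.18, and was lost in rotenone (rank 88442) and in the second class in the knockout (rank 51230). Between them, 35781 bp before the gene, 63793775-63794077 was strong in all 4 libraries with folds of 7.0, 6.22, 7.21 and 5.18. On the other side of the gene, the shared start site region of Iqch and Aagab (63602289-63602914) had folds of 9.61, 5.01, 8.24 and 6.66 and was strong in all 4. Of the 6 regions strong in control and vehicle alone, 5 lay inside Smad3 and 1 upstream of it. On the relative scale, rotenone was below vehicle at 16 of the 20 Smad3 regions with a peak in both, beside 46.7% of all merged regions. The knockout was below control at 11 of 21, beside 47.0% of all, and vehicle below control at 9 of 21, beside 51.5%. Regions entered these counts by being strong in at least 1 library. At Smad3, 16 were strong in control and in vehicle, and 11 in the knockout and in rotenone. The rotenone and knockout shares therefore follow in part from this choice of regions.

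The wider pathway was covered by a list of 38 other genes, all matched: latency proteins and activators of the ligands, related receptors, further SMADs, their regulators and target genes. In the knockout, 12 of the 178 strong control peaks at these genes were lost (6.74%) and 14 of 169 strong knockout peaks gained (8.28%), the losses at 10 genes and the gains at 12. In rotenone, 16 of 168 were lost (9.52%) at 13 genes and 15 of 171 gained (8.77%) at 10. Losses in the knockout took the share seen over all strong peaks (6.76%), while the other 3 shares were above theirs (5.33%, 8.04% and 6.81%), and no test was made. Between vehicle and control, 1 of 178 strong peaks was lost (0.562%) and 1 of 168 gained (0.595%), against 0.847% and 1.03% of all strong peaks.

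Over both comparisons, lost and gained peaks together numbered 6 at Ltbp3 and 4 each at Fbn1 and Tgfbi. Dcn, Itgav, Itgb6, Itgb8, Ltbp1, Ski and Smad5 tied at 3, and the first 3 of these by symbol are described with their regions. Of the other 4, Ltbp1, the gene of another latent TGF-β binding protein, and Ski, that of a SMAD co-repressor, each lost 2 peaks in the knockout and 1 in rotenone and gained 0. Itgb8, an integrin chain gene, gained 1 in the knockout and 2 in rotenone and lost 0, and Smad5, a SMAD of the BMP branch, lost 1 in each comparison and gained 1 in the knockout. Tgfbi, which encodes a TGF-β-induced matrix protein, had losses only, at the same 2 places in both comparisons. Inside the gene, the control peak at chromosome 13, 56612353-56612634 had a fold of 6.00 beside 2.67 in the knockout, and the vehicle peak at 56612366-56612632 one of 6.17 beside 2.70 in rotenone. The other place, 32050 bp outside the gene, had 5.62 beside 2.50 and 7.36 beside 2.41. It also lay within 50000 bp of Smad5. The losses counted at Smad5 are these same peaks, counted at both genes.
Dcn, Itgav and Itgb6 had gains only in the knockout and rotenone comparisons, and the 1 peak lost between vehicle and control was at Itgav. Decorin, the product of Dcn, binds TGF-β, and the integrin chains encoded by Itgav and Itgb6 release it from the latent complex. At chromosome 10, 97455740-97456157, 23551 bp from Dcn, the knockout peak had a fold of 5.24 beside 3.01 in control, and the rotenone peak at 97455811-97456030 one of 5.63 beside 3.03 in vehicle. At chromosome 2, 83699372-83699767, 22733 bp from Itgav, it was 5.54 in the knockout beside 2.86 in control, and at 83699390-83699605 7.63 in rotenone beside 3.79 in vehicle. The place shared by both comparisons near Itgb6 lay inside Pla2r1.
Ltbp3, the gene of a latent TGF-β binding protein, had 5 strong peaks each in control and vehicle, 9 in the knockout and 11 in rotenone. It lost the same region inside the gene in both comparisons, with folds of 5.63 in control beside 2.89 and 6.35 in vehicle beside 3.24. Of its gains, the best ranked knockout one overlapped the lncRNA gene Malat1. Fbn1, the fibrillin gene, gained 1 peak in the knockout and gained 2 and lost 1 in rotenone.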

How the data were processed

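ATAC-seq peak lists of 4 libraries, 1 per group, were used. Per the submitters' processing notes, Bowtie2, bedtools, MACS2 and HOMER were used on mm10. For versions, settings, filters and any Tn5 shift, the sources hold nothing: not given in the sources used here. Each deposited list covers 1 library and has no header. Its values were read in MACS2 broad peak order: a fold enrichment ratio, a −log10 p and a −log10 q by the authors, and a deposited score that was not used. Depth is unknown.

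Starts were made 1-based. Peaks were ranked by −log10 p (ties by fold), the 30000 first called strong and matched to the partner's 60000 first by 1 bp. No test was possible with 1 library per group. Wilson intervals are at 95%. Gene positions, strand at 5 members and promoters came from RefSeq GRCm38.p6, the assembly behind mm10. Peak sequences were not used here.

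Members, lists and thresholds were chosen with earlier results of these data known. All 10 members were named, with every strong region inside Smad3, at other members the best ranked and the lost or gained ones, and up to 6 pathway genes by number of lost and gained peaks, with ties, here among 7 genes, taken by symbol. Other member regions, the 4 tied genes left out by symbol, Gm51710 and Malat1 were named after their values were seen. To check the overlap code, the partner peaks over 200 strong peaks per comparison were removed from the real lists. All 200 were then called lost. That outcome follows from the removal, so it checks the code and not the detection of real losses. Alternatives were other list lengths, ranking by fold, 50% coverage, all partner peaks and other windows. Software: Python 3.11.15 with matplotlib 3.10.9, scipy 1.17.1, pandas 2.3.3 and numpy 2.4.6.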

Additional observations from a re-analysis of the deposited data

How the results depend on the processing

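The member counts depended on the list length and on the partner list. Lost and gained peaks in the knockout numbered 7 and 4. With 15000 strong peaks and a partner list of 30000 they were 3 of 32 (9.38%) and 2 of 29 (6.90%). The shares over all strong peaks were then 5.58% and 4.90%. With 60000 and 120000 they were 20 and 6, and against the partner's 30000 strongest 20 and 14. They were 0 and 0 when any deposited peak of the partner counted as shared, against 0.343% and 0.243% of all strong peaks. Gains in the knockout were 1 of 29 (3.45%) inside the genes alone and 2 of 36 (5.56%) with a window of 10000 bp. The share over all strong peaks was 5.33%. In rotenone, 9 lost and 1 gained became 5 of 31 (16.1%) and 1 of 26 (3.85%) with the shorter lists. The shares over all strong peaks were then 6.09% and 5.52%. The counts were 24 and 8 with the longer lists and 20 and 8 against the 30000 strongest. Against all partner peaks they were 0 and 0, beside 0.943% and 0.773% of all strong peaks. Rotenone losses were 14 of 62 (22.6%) when 50% of a peak had to be covered and 5 of 46 (10.9%) without Smad3. The shares over all strong peaks were 14.7% and 8.04%. Gains in rotenone were 3 of 54 with ranking by fold (5.56%, against 7.43% of all strong peaks). Vehicle against control, at 0 and 0, gave 4 of 112 gained with the longer lists (3.57%, against 4.08% of all strong peaks). It gave 1 of 60 lost with ranking by fold (1.67%, against 1.07%) and 1 of 62 lost with 50% covered (1.61%, against 1.94%). Against the 30000 strongest it gave 7 and 7. Losses outnumbered gains at the members in both comparisons under each alternative except all partner peaks, where both were 0. Over all strong peaks, too, losses outnumbered gains in both comparisons under each setting, so this order is not particular to the members. With 50% covered, the shares lost and gained over all strong peaks were 13.2% and 5.76% in the knockout. In rotenone they were 14.7% and 7.75%. Without Smad3 the knockout had 5 of 46 lost (10.9%, against 6.76% of all strong peaks) and 4 of 46 gained (8.70%, against 5.33%).

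With the longer lists the shares over all strong peaks were 14.0% lost and 12.1% gained in the knockout and 16.5% and 15.6% in rotenone, beside 17.7% and 5.50% and 21.4% and 8.60% at the members. The 40 strong peak counts per gene and library were each recomputed under 5 alternatives. Of the 200 recomputed counts, 91 stayed within 1.5 times the main count. At Smad3 the count was lower in the knockout than in control and lower in rotenone than in vehicle under each of the 5, from 1 fewer (fold ranking and shorter lists, knockout) to 6 fewer (longer lists, knockout). The 30000 strongest as partner list and the count without Smad3 were chosen after seeing the data. The cause was not tested. No paired analysis was possible because each group holds 1 library. With single libraries and no read counts, small differences in rank around the ends of the lists cannot be told from counting error.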
